A study of Mus musculus with 6 samples.

Results

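The hnRNP L and PTB proteins form a small group of related RNA-binding proteins, encoded in the mouse by *Hnrnpl*, its paralog *Hnrnpll*, and *Ptbp1*, *Ptbp2* and *Ptbp3*. These 5 genes were matched by symbol to their Ensembl identifiers among the 38293 genes counted, and all 5 were among the 14396 genes with enough reads to be tested. They were followed in RNA from fetal livers (FL) of single C57BL/6 embryos at embryonic day 14.5 (E14.5), 3 with wild-type *Hnrnpl* (wt) and 3 VavCre+ hnRNP L fl/fl embryos, called hnRNP L deficient. The labels call the former wild-type for hnRNP L, whereas a figure legend of the study gives its wt RNA-seq samples as L fl/fl. In the latter Cre recombinase is driven by the Vav promoter, which is active in hematopoietic cells, and how complete the deletion was in the sorted cells is not known from the labels. According to the methods of the study the sequenced cells were sorted as lineage-negative and c-Kit-positive progenitors (Lin- c-Kit+), whereas the sample labels name fetal liver cells and whole embryo. Which exons are removed by the deletion is not given in the sources used here. The labels give each library an embryo number of its own, and nothing says which embryos were littermates.

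All 5 proteins carry RNA recognition motifs and act in the nucleus on pre-mRNA. hnRNP L binds CA-rich stretches and hnRNP LL, its closest relative, shares that preference and is known in lymphocytes for the splicing of *Ptprc*. PTB proteins bind pyrimidine-rich stretches and repress many exons. PTBP1 is the widespread form, PTBP2 is best known from neurons and PTBP3 from blood-forming cells. Members of both groups are known to limit their own or each other's transcripts by splicing to forms with a premature stop codon, which nonsense-mediated decay (NMD) removes. *Ptbp1* does so by skipping an exon of 34 bases, and *Hnrnpl* by including a weak exon from a long intron. These exons are shown first because the exon bins described later cover them.

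The 34-base exon lies in the coding part of *Ptbp1* at chr10:79862014-79862047 on the plus strand, of *Ptbp2* at chr3:119724612-119724645 on the minus strand and of *Ptbp3* at chr4:59485339-59485372 on the minus strand (GRCm38, GENCODE M21 transcripts). Capitals mark the 19 of 34 bases (55.9%) that all 3 share.
Ptbp1: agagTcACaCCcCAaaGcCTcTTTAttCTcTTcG
Ptbp2: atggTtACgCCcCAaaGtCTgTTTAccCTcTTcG
Ptbp3: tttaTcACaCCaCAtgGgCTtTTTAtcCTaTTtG
The exons of *Ptbp1* and *Ptbp2* were identical at 26 bases (76.5%), those of *Ptbp1* and *Ptbp3* at 22 (64.7%) and those of *Ptbp2* and *Ptbp3* at 21 (61.8%).

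*Hnrnpl* has an exon of 70 bases that the annotation places in an NMD transcript and in no coding transcript, at chr7:28817335-28817404 on the plus strand. Capitals mark the annotated stop codon of that transcript, which begins at base 57 of the exon and leaves 11 bases after it.
Hnrnpl NMD exon: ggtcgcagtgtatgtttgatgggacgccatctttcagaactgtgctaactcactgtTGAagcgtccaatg
The exon bins within the long intron that holds this exon were searched for ACAC, because hnRNP L binds CA-rich RNA. The search was on the transcribed strand, with overlapping matches counted. The first 1584 bases of the intron held 14 matches, and 5 of GTGT, the reverse complement of ACAC. Of 11878 windows of that length in annotated retained-intron transcripts, 4.98% held at least 14 and the median was 6. The stretch with most matches, 120 bases at chr7:28816422-28816541, had 4 of them, shown in capitals, and was chosen for that.
Hnrnpl intron: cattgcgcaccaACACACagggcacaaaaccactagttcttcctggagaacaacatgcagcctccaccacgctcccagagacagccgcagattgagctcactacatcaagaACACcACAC
Further on in the intron, bins 21 and 23 described below held 0 and 2 matches and the NMD exon 0, while bases between the bins were not searched. These matches describe the letters only.

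Reads counted on genes summed to between 55952160 and 76157226 per library. At that depth 3 reads correspond to at most 0.0536 reads per 1000000, before scaling. Levels are given as CPM (reads per 1000000 counted on genes, scaled by edgeR's TMM method). *Kit*, the gene of the sort marker, was present in every library, at 423 to 656 CPM in wt and 325 to 368 CPM in hnRNP L deficient libraries. Of 5 progenitor markers 3 were lower in the hnRNP L deficient libraries and none was higher (edgeR's quasi-likelihood test, adjusted p under 0.05). Of all genes tested, 9.85% were lower and 9.32% higher by that rule. The summed granulocyte-macrophage markers were 7782 CPM in wt replicate 2, against 567 and 1445 CPM in the other wt libraries and 237 to 763 CPM in the hnRNP L deficient ones, and 0 of 5 passed in edgeR, with 1 lower at an unadjusted p-value under 0.05 and 1 lower with DESeq2. The summed macrophage markers ranged from 17.8 to 87.7 CPM in wt and from 4.75 to 8.92 CPM in hnRNP L deficient libraries, with 2 of 5 lower. The ranges were 1.03 to 7.1 and 0.0932 to 0.536 CPM for 5 lymphoid markers, 2 of the 3 tested lower, 105 to 226 and 20.5 to 69.2 CPM for 5 hepatocyte markers, 1 of them lower, and 17.5 to 46.1 and 7.21 to 8.31 CPM for 4 endothelial markers, 1 of them lower. Erythroid sums overlapped, at 1687 to 2138 and 1732 to 2034 CPM, with 1 of 5 lower, as did megakaryocyte sums, at 68.1 to 99.7 and 62.2 to 79.8 CPM, with 1 of 4 lower. At an unadjusted p-value under 0.05 in edgeR, and with DESeq2, the lower markers were 4 and 4 for progenitors, 4 and 4 for macrophages, 2 and 3 for lymphoid cells, 4 and 5 for hepatocytes, 3 and 2 for endothelium, 1 and 1 for erythroid cells and 2 and 2 for megakaryocytes. The shares of all genes called under these rules are not given here. No marker was at 0 in all libraries. In such bulk samples a change in the share of a cell type and a change in RNA per cell cannot be told apart, and the part of these differences in the results below was not tested.

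The genotypes were first compared for the level of each gene. *Hnrnpl*, the deleted gene (ENSMUSG00000015165, chr7:28808541-28822266, plus strand), was counted at 552, 531 and 528 CPM in wt embryos, against 242, 288 and 270 CPM after its deletion (replicates 1 to 3 in order). Every hnRNP L deficient library was thus below every wt library, yet none was without *Hnrnpl* reads, and the mean that remained was 49.7% of wt. It fell by 1.01 ± 0.09 on the log2 scale (SE, n = 3 against 3, edgeR's quasi-likelihood test, adjusted p = 0.00724).

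*Hnrnpll* (ENSMUSG00000024095, chr17:80029487-80062334, minus strand), the paralog, moved the other way. Its level was 145, 128 and 143 CPM in wt embryos, against 221, 213 and 213 CPM without hnRNP L, with no overlap. It rose by 0.64 ± 0.07 on the log2 scale (SE, n = 3 against 3, edgeR adjusted p = 0.0102), which brought the mean to 155% of wt.

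*Ptbp1* (ENSMUSG00000006498, chr10:79854427-79864771, plus strand), the main PTB gene of these cells, was also higher. It had 845, 734 and 784 CPM in wt and 1008, 963 and 953 CPM in hnRNP L deficient libraries, a rise of 0.31 ± 0.08 on the log2 scale (SE, n = 3 against 3, edgeR adjusted p = 0.0437). The groups did not overlap, but the rise was small and its adjusted p was 0.0624 when no filter on low counts was used.

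*Ptbp2* (ENSMUSG00000028134, chr3:119718742-119784466, minus strand), the neuronal form, was the least abundant member and fell. It had 27.6, 37.5 and 32.6 CPM in wt and 20.2, 23.4 and 21.8 CPM in hnRNP L deficient libraries, a log2 fold change of -0.58 ± 0.13 (SE, n = 3 against 3, edgeR adjusted p = 0.0286). The highest value was that of wt replicate 2, the library with the most granulocyte-macrophage reads, and without it the gene still fell by 0.46 on the log2 scale (edgeR adjusted p = 0.0239).

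*Ptbp3* (ENSMUSG00000028382, chr4:59471868-59549364, minus strand), the hematopoietic form, did not pass the test. Its values were 439, 426 and 379 CPM in wt and 363, 349 and 343 CPM in hnRNP L deficient libraries. These did not overlap, at a log2 difference of -0.24 ± 0.08 (SE, n = 3 against 3, edgeR adjusted p = 0.0857).

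**Figure D1:**
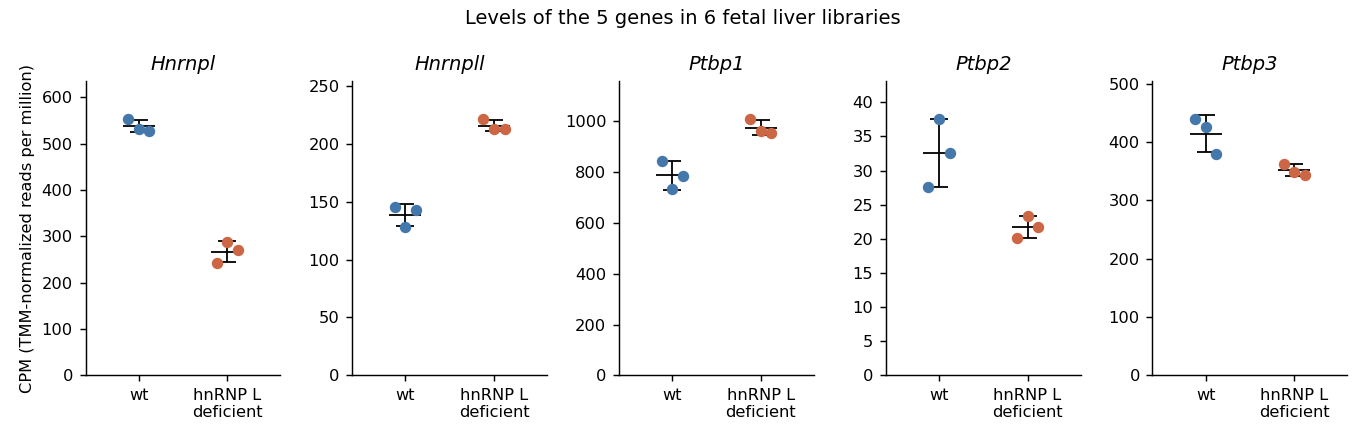
CPM of each gene in 3 wt embryos and 3 hnRNP L deficient embryos (points), with the mean and SD of each group (bars); the scale differs between panels and starts at 0. *Hnrnpl*, *Ptbp2* and *Ptbp3* lie lower and *Hnrnpll* and *Ptbp1* higher in all 3 hnRNP L deficient libraries, and the difference of *Ptbp3* did not pass the test.

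Thus 2 of the 5 genes were called higher and 2 lower, one of them the targeted gene, whereas 9.32% of all genes tested were called higher and 9.85% lower. The groups did not overlap for any of the 5, which was also so for 45.5% of all genes tested. The calls rested on wt replicate 3 and on each hnRNP L deficient library, and all 4 were kept without wt replicate 1 or 2. Those 2 fits called 4791 and 3527 genes of the whole table, against 1341 higher and 1418 lower with all libraries. When wt replicate 3 or any one hnRNP L deficient replicate was left out, no member passed, with adjusted p between 0.0517 and 0.0874 for *Hnrnpl* and *Hnrnpll*, while over all 6 fits the log2 fold changes of *Hnrnpl* stayed between -1.05 and -0.94 and those of *Hnrnpll* between 0.58 and 0.67. In those 4 fits only 5 to 17 genes of the whole table were called.

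To compare levels between genes, CPM were divided by the length of the longest principal transcript (RPKM). In wt libraries *Ptbp1* was highest at 248 ± 17.5 RPKM (SD, n = 3), followed by *Hnrnpl* at 200 ± 4.93, *Ptbp3* at 60.4 ± 4.62, *Hnrnpll* at 44.6 ± 2.99 and *Ptbp2* at 8.62 ± 1.31. In hnRNP L deficient libraries *Ptbp1* had 308 ± 9.17 RPKM (SD, n = 3), *Hnrnpl* 99.5 ± 8.67, *Hnrnpll* 69.3 ± 1.4, *Ptbp3* 51.3 ± 1.5 and *Ptbp2* 5.78 ± 0.428. *Hnrnpll* and *Ptbp3* therefore changed places, and in each group no neighbours in the order overlapped. With the summed length of all annotated exon bins in place of the transcript, *Hnrnpl* fell to 44.8 RPKM in hnRNP L deficient libraries and stood below *Hnrnpll* at 69.3 and *Ptbp3* at 47 RPKM, so that its place in the order there depends on the length used.

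The levels of *Hnrnpl* and *Hnrnpll* together came to 253, 239 and 243 RPKM in wt and 161, 176 and 169 RPKM in hnRNP L deficient replicates 1 to 3. The sum was lower in every hnRNP L deficient library than in any wt library, although *Hnrnpll* was higher. *Hnrnpll* made up 18.2% ± 0.901 of the sum in wt and 41.1% ± 2.59 in hnRNP L deficient libraries (SD, n = 3). With the summed length of all exon bins these shares were 33.1% ± 1.34 and 60.8% ± 2.54, so that which paralog made up most of the sum without hnRNP L depends on the length. For the PTB genes the summed level was 317 ± 18 RPKM in wt and 365 ± 10.3 RPKM in hnRNP L deficient libraries (SD, n = 3). The share of *Ptbp1* in it was 78.2% ± 1.7 and 84.3% ± 0.162, that of *Ptbp3* 19% ± 1.36 and 14.1% ± 0.0349, and that of *Ptbp2* 2.74% ± 0.554 and 1.59% ± 0.152. With the summed exon bins the share of *Ptbp1* was 71.8% ± 2.06 and 79.3% ± 0.231.

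Ratios within a library do not depend on its size, and 3 of them were tested. For every read of *Hnrnpl* there were 0.263, 0.241 and 0.272 reads of *Hnrnpll* in wt and 0.913, 0.74 and 0.792 in hnRNP L deficient libraries. This ratio was 3.14-fold higher without hnRNP L, a difference of 1.65 on the log2 scale. Its denominator is the deleted gene, which fell by 1.01 on that scale, while *Hnrnpll* rose by 0.64. The ratio of *Ptbp2* to *Ptbp1* was 0.0328, 0.0512 and 0.0418 in wt and 0.0201, 0.0244 and 0.023 in hnRNP L deficient libraries, that is 1.84-fold lower. The ratio of *Ptbp3* to *Ptbp1* was 0.519, 0.58 and 0.483 in wt and 0.361, 0.363 and 0.36 in hnRNP L deficient libraries, 1.46-fold lower. The latter values were nearly alike in the 3 hnRNP L deficient embryos. Groups did not overlap for any of the 3 ratios, and each gave p = 0.1 in the exact two-sided permutation test, adjusted p = 0.1 over the 3, which is the smallest value that 3 libraries against 3 allow.

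Exon usage was compared next, in the 3 wt embryos and in replicates 2 and 3 of the hnRNP L deficient ones. Bins of the remaining embryo, replicate 1, were not analysed here. An exon bin is a stretch of a gene that belongs to the same set of annotated transcripts, numbered by rising coordinate, so that bin 1 is the 5′ end of *Hnrnpl* and *Ptbp1* and the 3′ end of *Hnrnpll*, *Ptbp2* and *Ptbp3*. The deposited counts give numbers without positions, which were rebuilt from GENCODE transcripts, and for all 5 genes the rebuilt and deposited numbers of bins were the same. Usage is the level of a bin relative to the other bins of its gene, so that a change in the whole gene cancels. Of 158 bins of the 5 genes, 147 had a mean of at least 10 reads and were tested.

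All called bins were in *Hnrnpl*. There, 1 of 37 tested bins passed an adjusted p-value of 0.05 (edgeR diffSpliceDGE), and 2 had an unadjusted p-value under 0.01 with a change above 2-fold. Over all genes 0.0288% of bins passed the first rule and 0.246% the second. At an unadjusted p-value under 0.05 edgeR gave 7 bins of *Hnrnpl*, all used more in hnRNP L deficient libraries, against 1.02% of all bins. Of these 7, 6 are annotated only in retained-intron transcripts and the other is the NMD exon printed above. The other tools gave more bins at that threshold, some of them used less. Limma had 17, 8 used more and 9 less, against 2.65% of all bins, and the DEXSeq model fitted with DESeq2 had 14, 8 used more and 6 less, against 4.3%. The bins used less were coding exons before the long intron, bins 12, 13 and 16 to 19 with both tools and also 9 to 11 with limma, at -0.42 to -0.25 on the log2 scale. None of them passed when adjusted (smallest adjusted p = 0.0699, DEXSeq model, bin 19).

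**Figure D2:**
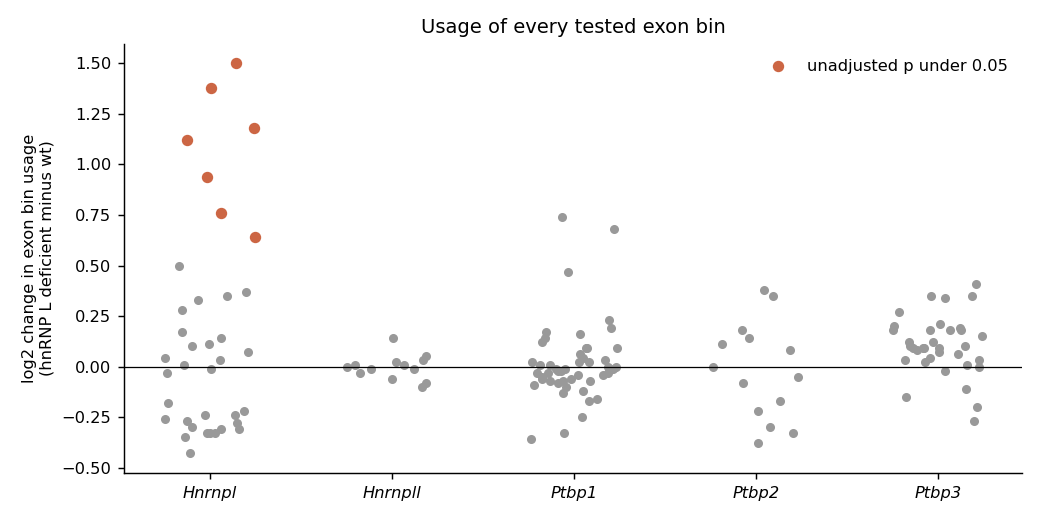
log2 change in usage of each of the 147 tested exon bins, hnRNP L deficient minus wt, by gene; each point is 1 bin and orange points have an unadjusted p under 0.05 in edgeR. The 7 orange points are bins of *Hnrnpl* between 0.64 and 1.50, and the bins of the other 4 genes lie between -0.38 and 0.74.

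Bin 23 is the last 627 bases of the intron that ends at exon bin 24 (chr7:28817834-28818460), and it was the bin past the first rule. It had 723, 900 and 1105 reads in the wt libraries, against 965 and 1338 reads in the hnRNP L deficient ones. Per 1000000 reads on bins, the values overlapped, at 7.08, 8.42 and 8.51 in wt, against 7.78 and 9.22, in a gene whose coding exons kept 45.2% of their wt reads. Its usage rose by 1.18 on the log2 scale (edgeR diffSpliceDGE over all bins, unadjusted p = 1.18e-06, adjusted p = 0.00567). The call was lost without wt replicate 3 (change 1.23, edgeR adjusted p = 0.0564) and without hnRNP L deficient replicate 2 or 3 (changes 1.34 and 1.00, edgeR adjusted p = 1).

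Bin 21, 24 bases within the same intron (chr7:28816937-28816960), met the second rule. It had 138, 120 and 173 reads in wt and 211 and 243 in hnRNP L deficient libraries, which is 133% of wt per 1000000 reads on bins. Its usage change was 1.50 on the log2 scale (edgeR diffSpliceDGE, unadjusted p = 3.38e-05, adjusted p = 0.098), and it passed in limma (adjusted p = 1.11e-05) and in the DEXSeq model (adjusted p = 1.57e-11). Bin 20, the 1584 bases before it that were searched for ACAC, had 1519, 1643 and 2523 reads in wt and 1547 and 1698 in hnRNP L deficient libraries, a log2 usage change of 0.64 with adjusted p = 1 in edgeR, 0.132 in the DEXSeq model and 0.0209 in limma, where it passed. Bins 20 and 21 touch, so a read can count on both.

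The NMD exon, bin 22, had 314, 461 and 325 reads in wt and 333 and 378 reads in hnRNP L deficient libraries. Per base it held 9.18, 13.3 and 7.63% of the reads of its flanking coding exons, bins 19 and 24, in wt and 18.8 and 19.7% in hnRNP L deficient libraries, with no overlap. This ratio was 1.91 times as high in hnRNP L deficient libraries. Its usage change was 0.76 on the log2 scale and did not pass when adjusted (edgeR diffSpliceDGE, unadjusted p = 0.00961, adjusted p = 1), nor in the DEXSeq model (adjusted p = 0.341), whereas it passed in limma (adjusted p = 0.0266). The highest wt value was again that of replicate 2, and without that library the change was 1.00 (edgeR adjusted p = 0.00624). Without wt replicate 1 or 3 the change was 0.71 and 0.61, and it did not pass in edgeR. Without hnRNP L deficient replicate 2 or 3 it was 0.79 and 0.73. Bin 22 falls outside the rule by which bins were named and was added after its values were seen, because it is the NMD exon.

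The same comparison with flanking exons was made for the intronic bins. Bins 14 and 15 lie in the same intron, upstream of the long intron. They held 0.912% ± 0.281 and 0.658% ± 0.244 of the reads per base of exon bins 13 and 18 in wt (SD, n = 3). In hnRNP L deficient libraries the means were 0.905% and 0.607%, and the groups overlapped for both bins. In the long intron, bin 20 held 2.23% ± 0.345 of its flanks in wt and 3.86 and 3.9% in hnRNP L deficient libraries, bin 21 held 11.3% ± 0.969 and 34.7 and 36.9%, and bin 23 held 2.72% ± 0.313 and 6.08 and 7.77%. In a later intron, bin 30 held 1.41% ± 0.173 in wt and 2.47 and 2.84% in hnRNP L deficient libraries, and its usage passed in the DEXSeq model (adjusted p = 0.0123) but in neither edgeR nor limma. These bins were chosen after their values were seen. Short bins take up reads that only touch them, so these percentages compare libraries and do not measure the share of transcripts that hold a bin.

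**Figure D3:**
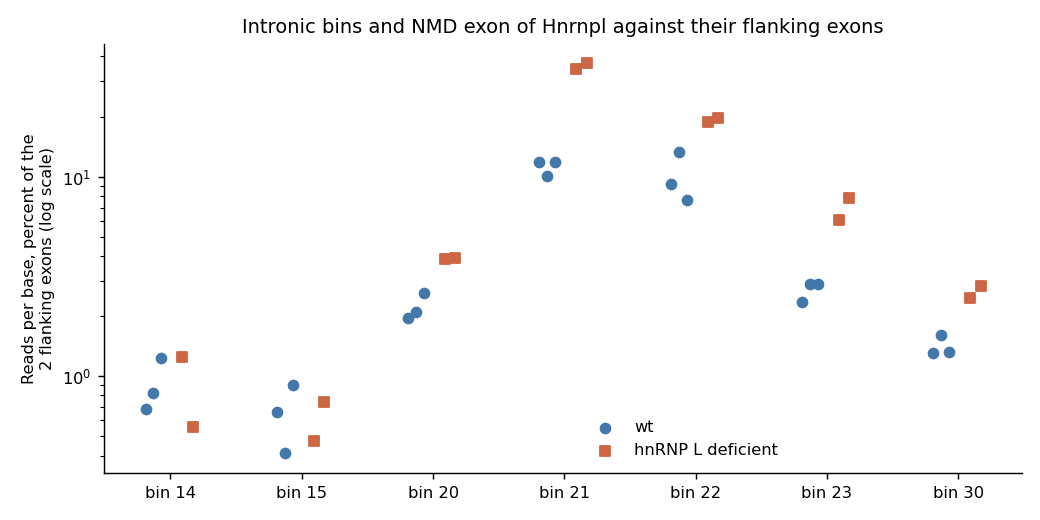
Reads per base of the intronic bins and of the NMD exon (bin 22) of *Hnrnpl* as a percentage of the mean of the 2 flanking coding exons, on a log scale, in the 3 wt embryos (circles) and in replicates 2 and 3 of the hnRNP L deficient embryos (squares). The groups overlap for bins 14 and 15 and are apart for bins 20, 21, 22, 23 and 30.

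Along *Hnrnpl*, reads on exons of coding transcripts before and after the long intron did not fall alike. The 10 exon bins up to bin 19 with a mean of at least 100 wt reads summed to 275, 256 and 264 reads per 1000000 in wt and to 108 and 97.8 in hnRNP L deficient libraries, 38.8% of wt. The 14 exon bins from bin 24 on summed to 356, 382 and 351 in wt and to 187 and 175 in hnRNP L deficient libraries, 49.9% of wt. The percentage was higher after the intron in both hnRNP L deficient libraries, 51.5% against 40.7% in replicate 2 and 48.2% against 36.9% in replicate 3. Single exon bins kept 37.3 to 50.2% before the intron and 41.5 to 66.2% after it. The highest, named after the values were seen, was bin 25, 111 bases that belong to a single coding transcript, with 516, 503 and 779 reads in wt and 433 and 503 reads in hnRNP L deficient libraries. The other 5 bins with as many reads, which are those of introns and the NMD exon, kept between 73 and 133%.

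**Figure D4:**
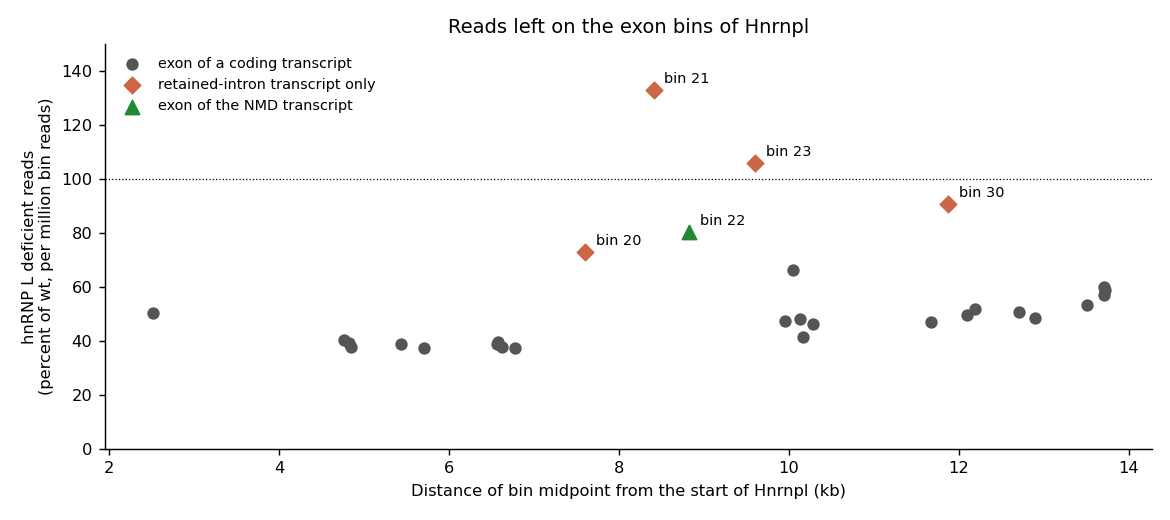
Reads of hnRNP L deficient libraries as a percentage of wt, per 1000000 reads on bins, for the 29 bins of *Hnrnpl* with a mean of at least 100 wt reads, against the distance of the bin from the start of the gene. Exon bins of coding transcripts lie between 37.3 and 66.2%, bins 20, 21, 23 and 30 of retained introns and the NMD exon (bin 22) between 73 and 133%.

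In *Hnrnpll* the rise was spread over the whole gene. All 13 bins were tested, 0 passed, and none reached an unadjusted p-value under 0.05 with edgeR, limma or the DEXSeq model fitted with DESeq2. Each bin had between 136 and 160% of the wt reads per 1000000, and the usage changes lay between -0.10 and 0.14 on the log2 scale. The smallest p-value was 0.555, for bin 6, a coding exon of 218 bases with 1311, 1393 and 1845 reads in wt and 2678 and 3079 in hnRNP L deficient libraries. The usage changes of the next, bins 2 and 13, were -0.10 and -0.08 on the log2 scale. The annotation used for the bins holds 1 transcript of *Hnrnpll*, so an exon outside it could not be seen.

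In *Ptbp1* 48 of 49 bins were tested, and 0 passed with edgeR, limma or the DEXSeq model, or had an unadjusted p-value under 0.05. The smallest p-value was 0.266, for bin 28, a retained intron of 79 bases with 22, 25 and 20 reads in wt and 68 and 29 in hnRNP L deficient libraries. Bin 5, a stretch of 11 bases in the first exon, followed with a usage change of -0.33 on the log2 scale, and bin 49, the last stretch of the gene, with 0.74 at 4 to 20 reads. The exon whose skipping leads to decay was read on bin 38, 31 of its 34 bases, with 2312, 1999 and 3019 reads in wt and 3224 and 3726 in hnRNP L deficient libraries. Per base this was 203, 187 and 207% of the flanking exons in wt and 207 and 203% in hnRNP L deficient libraries, and the groups overlapped. Its usage change was 0.06 on the log2 scale (edgeR diffSpliceDGE, unadjusted p = 0.805).

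*Ptbp1* has another alternative exon, of 78 bases (chr10:79860117-79860194, plus strand), which keeps the reading frame and lengthens the stretch between RNA recognition motifs. It is printed in full because it is the coding exon whose inclusion separates the PTBP1 isoforms.
Ptbp1 alternative exon: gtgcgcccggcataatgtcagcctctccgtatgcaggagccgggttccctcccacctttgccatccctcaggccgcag
Read on bin 34, it held 64.6, 69.5 and 68% of the reads per base of its flanks in wt and 60.6 and 61.6% in hnRNP L deficient libraries. These values did not overlap, but the means differed by a factor of 0.907, and the usage test gave a change of 0.02 on the log2 scale (edgeR diffSpliceDGE, unadjusted p = 0.948). Bins 34 and 38 of *Ptbp1*, and the homologous bins of *Ptbp2* and *Ptbp3* that follow, were chosen for the known exons and outside the rule, after the values were seen.

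In *Ptbp2* all 14 bins were tested and 0 passed or had an unadjusted p-value under 0.05 with edgeR, limma or the DEXSeq model. The median was 136 reads per bin. As for *Hnrnpll*, the annotation used for the bins holds 1 transcript of *Ptbp2*, so an exon outside it could not be seen. The smallest p-value was 0.332, for bin 9, followed by bins 6 and 10, with usage changes of 0.38, -0.38 and 0.35 on the log2 scale. The 34-base exon, bin 5, had 11, 39 and 78 reads in wt and 31 and 37 in hnRNP L deficient libraries, which is 31.9, 75.7 and 137% of its flanks per base in wt and 107 and 128% in hnRNP L deficient libraries. The values of the hnRNP L deficient embryos lay within the range of the wt ones.

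In *Ptbp3* 35 of 42 bins were tested and edgeR gave 0 calls and 0 bins at an unadjusted p-value under 0.05. The smallest p-value was 0.311, for bin 37, and it was nearly the same for the adjoining bins 38 and 36, which are 5 to 9 bases of the first exon and count largely the same reads. Bins 37 and 38 had unadjusted p-values of 0.0448 and 0.0489 in the DEXSeq model, and bin 2, within the 3′ end, had one of 0.00907 in limma, and none passed when adjusted. The 34-base exon, bin 13, had 567, 515 and 762 reads in wt and 584 and 650 in hnRNP L deficient libraries. Per base this was 183, 180 and 178% of its flanks in wt and 173 and 181% in hnRNP L deficient libraries, with overlap.

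Proteins known to bind hnRNP L or PTB, or to act with them on RNA, were looked at through 13 genes. Only *Pcbp2*, an hnRNP that binds C-rich RNA, passed. It had 703, 634 and 686 CPM in wt and 845, 814 and 816 CPM in hnRNP L deficient libraries, a rise of 0.29 ± 0.08 on the log2 scale (SE, n = 3 against 3, edgeR adjusted p = 0.0414, and 0.0621 without the filter on low counts). Its relative *Pcbp1* had a log2 difference of 0.32 (edgeR adjusted p = 0.0598) and *Raver1*, a co-repressor of PTB, one of 0.28 (edgeR adjusted p = 0.0923), and neither passed. With DESeq2 2 were called higher and 0 lower, and 4 were higher and 0 lower at an unadjusted p-value under 0.05 in edgeR. For these 2 rules the shares of all genes are not given here. So 1 of 13 was called higher and 0 lower by edgeR, against 9.32 and 9.85% of all genes, and the median log2 fold change of the 13 was 0.09, that of all genes -0.03. *Setd2*, the histone methyltransferase that binds hnRNP L, differed by 0.04 and *Med23*, a Mediator subunit, by -0.02. Of 218 exon bins tested in 11 of these genes, edgeR called 0. Against 1.02% of all bins, 2 reached an unadjusted p-value under 0.05, both in *Hnrnpk*. Its bin 42 passed in limma (adjusted p = 0.0253) and had 302, 276 and 620 reads in wt and 841 and 898 in hnRNP L deficient libraries.

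Genes with exons known to be under PTB control were listed, and 10 of 11 had enough reads. That control acts on exons, whereas the levels below are those of whole genes and do not measure PTB activity. *Cltb*, a clathrin light chain, had 30.7, 27.6 and 29.1 CPM in wt and 37.9, 40.5 and 37.7 CPM in hnRNP L deficient libraries, a rise of 0.41 ± 0.08 on the log2 scale (SE, n = 3 against 3, edgeR adjusted p = 0.0224). *Fas*, a death receptor, had 3, 36 and 7 reads in wt and 174, 135 and 243 reads in hnRNP L deficient libraries, a rise of 3.42 ± 0.81 on the log2 scale (SE, n = 3 against 3, edgeR adjusted p = 0.0322). Most wt reads of *Fas* were from replicate 2, and without that library the rise was 5.08 (edgeR adjusted p = 0.00213). *Tpm2*, a tropomyosin, had 3.47, 6.4 and 2.9 CPM in wt and 1.63, 1.25 and 1.59 CPM in hnRNP L deficient libraries, a log2 fold change of -1.51 ± 0.34 (SE, n = 3 against 3, edgeR adjusted p = 0.0282).

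*Gabbr1*, a GABA receptor subunit, had 2.21, 2.73 and 4.14 CPM in wt and 1.41, 1.53 and 1.34 CPM in hnRNP L deficient libraries, a log2 fold change of -1.09 ± 0.29 (SE, n = 3 against 3, edgeR adjusted p = 0.0404). These 4 are the called genes of the list, 2 higher and 2 lower of 10, beside 9.32 and 9.85% of all genes, and they did not move together. The median log2 fold change was -0.01 for the list. *Pkm*, the pyruvate kinase gene whose exon choice PTB governs, had 401, 605 and 324 CPM in wt and 711, 751 and 768 CPM in hnRNP L deficient libraries and did not pass (log2 difference 0.75, edgeR adjusted p = 0.0522). Of 219 exon bins tested in these genes, 0 passed in edgeR, limma or the DEXSeq model and 0 had an unadjusted p-value under 0.05 in edgeR.

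**Figure D5:**
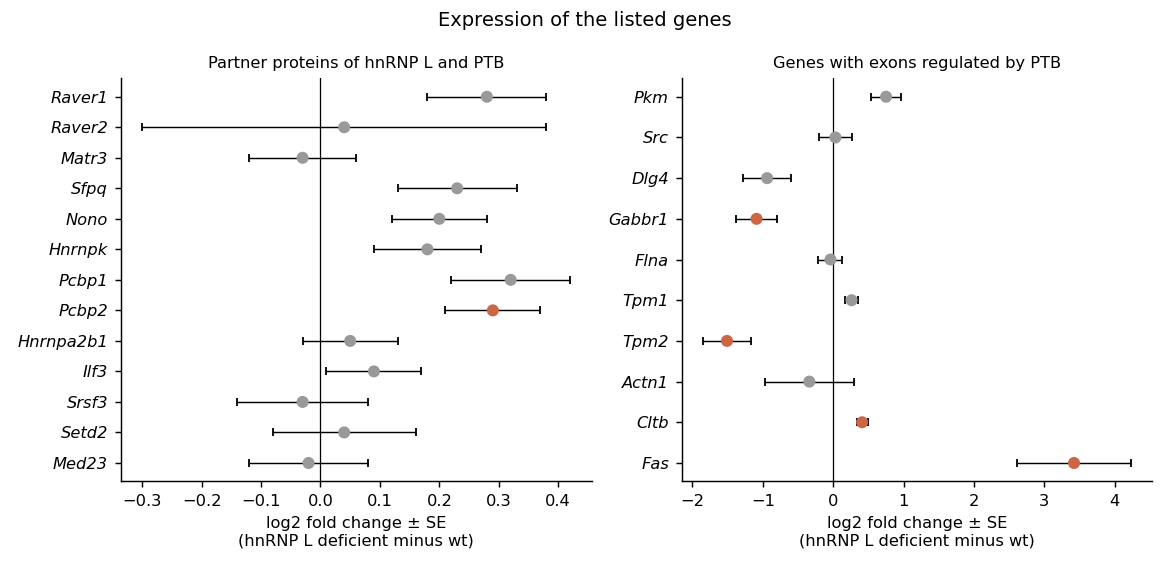
log2 fold change with its SE, hnRNP L deficient minus wt, of the 13 partner genes and of the 10 tested genes with PTB-regulated exons; orange points passed at an adjusted p under 0.05. *Pcbp2* is the orange point on the left, and *Gabbr1* and *Tpm2* (below 0) and *Cltb* and *Fas* (above 0) are those on the right.

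Genes with the most similar pattern to each member were found among 8649 others with a mean of at least 10 CPM, by the root mean square difference of centred log2 CPM over the 6 libraries. For *Hnrnpl* these were *Kctd14* (0.081) and *Tspan8* (0.097), and the median over all genes was 0.555. For *Hnrnpll* they were *Siah2* (0.024) and *Mpv17l2* (0.025), with a median of 0.324. For *Ptbp1* they were *Actr1b* (0.008) and *Hdlbp* (0.009), with a median of 0.194. *Ptbp2* was closest to *Mfsd4b4* (0.014) and *Glt8d1* (0.035), with a median of 0.374, and *Ptbp3* to *Sgo2a* (0.023), with a median of 0.226. No member of the group was among the closest of another. *Mfsd4b4* has similar copies in the genome, so its counts are uncertain.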

How the data were processed

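RNA of 3 wt and 3 hnRNP L deficient E14.5 embryos was sequenced as stranded paired-end mRNA libraries. Alignment by the authors was to GRCm38, with TopHat2 2.0.10 in the submitters' processing notes. Raw counts were deposited, made with HTSeq for Ensembl genes and with the DEXSeq script for exon bins. The Ensembl release and the counting options are not given in the sources used here.

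Genes were compared over 6 libraries in R 4.3.3 by edgeR 4.0.16 (TMM, default expression filter, robust quasi-likelihood test, Benjamini-Hochberg adjustment over 14396 genes). Of the reads in the gene files, 46.7 to 53.3% were not assigned to a gene and were left out. The 176996 bins averaging 10 reads or more went into diffSpliceDGE, over 5 libraries. DESeq2 1.42.0 and limma 3.58.1 were alternatives, DEXSeq being represented by its model fitted with DESeq2. Symbols were matched for 94.9% of genes. Bin positions were rebuilt by flattening the older transcripts of GENCODE M21, which gave the deposited number of bins for 89.8% of 34765 genes. The transcripts taken were chosen for that match. Ratios used log2 of CPM plus 0.1. The fits were also run on simulated counts, with bin changes larger than those found in *Hnrnpl*. The outcome is not given here.

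The genes, gene lists and tests were chosen with earlier results of these data known. Named bins are those past either rule and the 3 with the smallest p-value in each gene, named list genes are those called, and the 2 most similar genes were named for each member, except 1 that is not reported here. The other genes and bins are said to be additions where they appear or are given for comparison. Depth was 55952160 to 76157226 reads on genes per library. Splice junctions were not analysed here, and no protein sequence was used.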

Additional observations from a re-analysis of the deposited data

How the results depend on the processing

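The 3 ratios cannot pass at this sample size. The other 24 results were recomputed with DESeq2, median-of-ratios size factors, no filter on low counts, other tools or minimums for bins, or 1 library left out. Of these 202 values, 135 stayed on the same side of the threshold or within 1.5 times the count. Of the others, 41 no longer passed, 8 newly passed, 18 counts moved further and 0 changed direction. Without the filter *Ptbp1* no longer passed (log2 fold change 0.33, adjusted p = 0.0624) and 0 partner genes were called, and 2 were with DESeq2. For *Hnrnpl* 4 bins were called with limma (20 to 23) and 3 with the DEXSeq model (21, 23 and 30), in place of 1. At an unadjusted p-value under 0.05 limma and the DEXSeq model took 2.65 and 4.3% of all bins, against 1.02% in edgeR. Their shares of all bins when adjusted are not given here, so these counts cannot be set against each other. With each library left out in turn, log2 fold changes ranged from -1.05 to -0.94 for *Hnrnpl* (edgeR adjusted p 0.00238 to 0.0854), from 0.58 to 0.67 for *Hnrnpll* (0.00238 to 0.0874), from 0.26 to 0.37 for *Ptbp1* (0.0136 to 0.159), from -0.68 to -0.46 for *Ptbp2* (0.0106 to 0.123) and from -0.29 to -0.19 for *Ptbp3* (0.069 to 0.29). In the same fits 4791 genes of the whole table were called without wt replicate 1 and 3527 without wt replicate 2. Each other fit called 5 to 17. The number of called bins of *Hnrnpl* ranged from 0 to 3, that of partner genes from 0 to 5 and that of genes with PTB-regulated exons from 0 to 6. The values of 0 came without wt replicate 3 or without an hnRNP L deficient replicate, and 2 to 3 bins of *Hnrnpl* without wt replicate 1 or 2. Bin 23 then had an adjusted p-value of 0.0564 without wt replicate 3 and of 1 without either hnRNP L deficient library, which leaves that group with a lone library assumed to vary like wt. The cause was not tested. The median log2 fold change of all genes was -0.03 with TMM and -0.02 with median-of-ratios factors. No paired analysis was possible because the labels give embryo numbers and no replicate numbers shared between the groups.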
